A study of Mus musculus with 6 samples.

Results

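The 10 genes described here encode receptor tyrosine kinases that are studied in melanoma, namely Met, Erbb3, Egfr, Kit, Pdgfra, Pdgfrb, Axl, Mertk, Tyro3 and Igf1r. They were chosen by gene symbol, and all 10 were found among the 23951 genes of the deposited table. RNA was measured in 3 mouse melanoma cell lines with 2 libraries each. B16-F1, the parental line, has low metastatic potential and came from a cell repository. B16-F1R2, the lymph node line, was derived from a lymph node metastasis, and B16-F1R2L, the lung line, from a lung metastasis that itself goes back to a lymph node metastasis; both were received from the same outside laboratory. All lines carry the label "No treatment" and grew in the same high glucose medium with serum, and no genetic change is named for any of them. Line and source cannot be told apart, since B16-F1 alone came from the repository, and nothing in the labels tells whether the libraries of the same line go back to different cultures, so that p-values measure only the spread between these libraries, which may be technical.

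Receptor tyrosine kinases are membrane proteins that bind a growth factor outside the cell, pair up, and phosphorylate each other on tyrosines inside it, where adaptor proteins then dock and start the Ras/MAPK and PI3K cascades. In the melanocyte lineage KIT, the receptor of stem cell factor, is needed for survival and migration of the precursors, and MET, the receptor of hepatocyte growth factor, and ERBB3, a neuregulin receptor with a weak kinase of its own, are typical of pigmented melanoma cells. AXL and the PDGF receptors are known from dedifferentiated, drug-tolerant melanoma states, and EGFR is usually low in melanoma.

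The values are FPKM, fragments per kilobase of transcript scaled to the mapped reads, so that levels of different genes can be compared per length. The table gives no read totals. The depth was estimated at 12200000 to 14300000 reads per library. This rests on the median of low values of genes with a single annotated transcript, kept only within a preset window. That window bounds the estimate, so the depth and the read numbers below are rough. Lines were compared with limma, an empirical Bayes linear model, on log2(FPKM + 0.1) over 11379 genes with 1 FPKM or more in 2 or more libraries, with Benjamini-Hochberg adjustment over all of them and a threshold of 0.05. Because of the added 0.1, changes of genes with low values are understated. Of the 10 receptors 8 were tested. Pdgfra and Egfr stayed under the filter, Kit passed it only through the parental line, Mertk only through the lung line, and Pdgfrb and Axl only through both metastatic lines, so that the receptors that passed are partly a selection for difference and their counts and medians are descriptions only. The same holds for the other gene lists below, where some genes passed the filter only through the lines in which they were high. All 7 melanocyte markers examined, among them Sox10 with 163 to 228 FPKM and Mlana with 2895 to 4440 FPKM over the libraries, were far above the filter in every line.

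In the lymph node line against the parental line, 4 of the 10 receptors were higher (Pdgfrb, Axl, Igf1r and Tyro3) and 3 were lower (Met, Erbb3 and Kit). These 7 of 8 tested receptors stand against 55.4% of all tested genes called in that comparison, 28.2% higher and 27.2% lower. In all 7 the libraries of the lines did not overlap, as in 80.0% of all tested genes. In the lung line against the parental line the receptors were called in the same directions, 4 higher and 3 lower, with 56.7% of all tested genes called, 29.5% higher and 27.1% lower, and the libraries did not overlap for all 8 tested receptors (80.8% of all tested genes). Over all tested genes 3361 were higher and 3086 lower in the lung line, and 4075 and 2043 after scaling each library to a sum of 1000000 FPKM, which shifted the median of all tested genes from 0.017 to 0.12 and left the calls of the receptors as they were. Both comparisons share the parental libraries. The median log2 fold change of the 8 tested receptors was 0.30 for the lymph node line and 0.57 for the lung line, against 0.0046 and 0.017 over all tested genes. For 1 gene alone, 2 libraries on each side allow no two-sided exact permutation p under 0.333, and the calls depend on limma's pooling of the spread across genes.

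**Figure D1:**
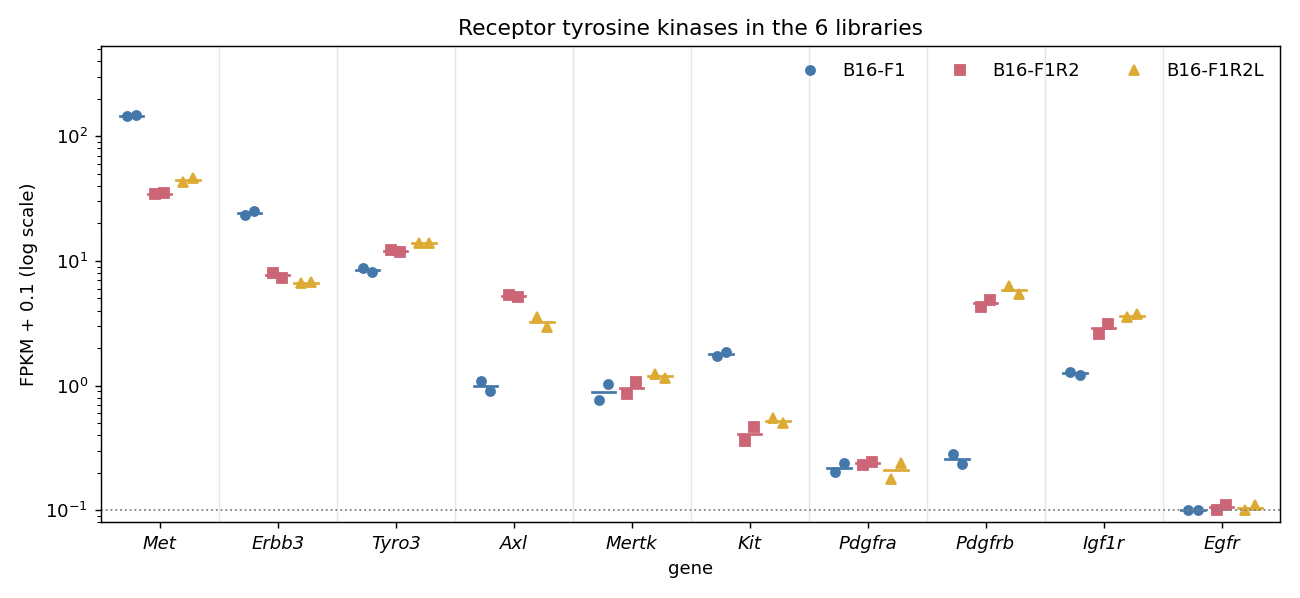
FPKM of the 10 receptors in each library on a log axis, with 0.1 added to every value and the dotted line marking a listed value of 0. Points are libraries and short bars are means of the 2 libraries of a line. Met, Erbb3 and Kit lie highest in B16-F1, whereas Pdgfrb, Axl, Tyro3 and Igf1r lie lowest there, and Egfr lies at or beside the dotted line.

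The first group is formed by the receptors that were lower in the metastatic lines. Met was by far the most abundant receptor of the set in every library. It had 146 and 147 FPKM in the parental libraries, 34.5 and 34.7 in the lymph node line, and 43.0 and 45.8 in the lung line. The libraries of the 3 lines did not overlap, with the parental line highest and the lymph node line lowest. The log2 fold change of Met was -2.08 in the lymph node line (standard error 0.046, adjusted p = 9.4e-07 from limma) and -1.72 in the lung line (adjusted p = 1.8e-06). By mean level it ranked 702 among all genes of the table in the parental line, 2794 in the lymph node line and 2172 in the lung line.

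Erbb3 had 23.1 and 24.9 FPKM in the parental line, 7.90 and 7.26 in the lymph node line, and 6.50 and 6.62 in the lung line. It was the second receptor of the set in the parental line and came after Tyro3 in both metastatic lines. The log2 fold change was -1.65 in the lymph node line (standard error 0.073, adjusted p = 1.2e-05 from limma) and -1.86 in the lung line (adjusted p = 6.8e-06). Schwann cells also express Erbb3, and the summed level of 6 Schwann cell markers went the other way, from at most 147 FPKM in the parental line to at least 604 in the lymph node line and at least 647 in the lung line, with 2 of the 4 tested markers higher and 2 lower in the lymph node line.

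Kit was low in all lines, with 1.63 and 1.74 FPKM in the parental line, 0.261 and 0.362 in the lymph node line, and 0.447 and 0.396 in the lung line. At the longest annotated transcript these values correspond to about 106 and 112 reads in the parental line and to between 18 and 30 reads in the other libraries. Kit fell in both metastatic lines, with log2 fold changes of -2.13 in the lymph node line (standard error 0.23, adjusted p = 4.7e-04 from limma) and -1.78 in the lung line (adjusted p = 0.0010). With a pseudocount of 1 these log2 fold changes were -1.03 and -0.92, and after quantile normalization -3.02 and -2.87, so the size is poorly fixed at this level while the direction was the same. The melanocyte markers moved in the same direction in the lymph node line, where 6 of 7 were lower than in the parental line (27.2% of all tested genes) and their summed level was 7909 to 8125 FPKM against 14970 to 15010 (8924 to 8934 in the lung line), and their part in the falls of Met, Erbb3 and Kit was not tested. Mitf, the lineage transcription factor, was the exception, with 92.3 and 88.7 FPKM in the parental line and 79.5 and 83.6 in the lymph node line (log2 fold change -0.15, 95% confidence interval -0.31 to 0.014, adjusted p = 0.11 from limma), and in the lung line it was higher than in the parental line, with 112 and 127 FPKM (log2 fold change 0.40, adjusted p = 0.0032). In bulk RNA fewer cells with a transcript and less of it per cell cannot be told apart.

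Promoter sequence is shown for a pair of receptors that were lower in the metastatic lines (Met and Kit) and a pair that were higher (Axl and Igf1r), as members with a shared direction against the parental line. Sequences are those before the start of the gene in RefSeq (table for GRCm38.p6), located in NCBIM37, the mm9 assembly of the reads, by exact match, and are limited to bases before the annotated start of the gene there. They are written 5′ to 3′ on the strand of the gene, and capitals mark GGGCGG, the GC box bound by SP family factors. Met is on the plus strand at chr6:17413707-17413799, Kit on the plus strand at chr5:75970762-75970940, Axl on the minus strand at chr7:26573753-26574002 and Igf1r on the plus strand at chr7:75096893-75097142.
Met: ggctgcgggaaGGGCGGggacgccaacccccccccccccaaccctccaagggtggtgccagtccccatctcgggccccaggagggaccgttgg
Kit: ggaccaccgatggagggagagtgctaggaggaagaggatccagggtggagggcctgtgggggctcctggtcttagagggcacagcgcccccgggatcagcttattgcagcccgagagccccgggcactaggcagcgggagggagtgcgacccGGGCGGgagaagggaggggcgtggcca
Axl: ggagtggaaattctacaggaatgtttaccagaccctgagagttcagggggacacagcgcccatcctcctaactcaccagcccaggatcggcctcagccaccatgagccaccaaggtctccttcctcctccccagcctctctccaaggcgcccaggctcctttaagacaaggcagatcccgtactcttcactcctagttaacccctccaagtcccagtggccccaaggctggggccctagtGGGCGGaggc
Igf1r: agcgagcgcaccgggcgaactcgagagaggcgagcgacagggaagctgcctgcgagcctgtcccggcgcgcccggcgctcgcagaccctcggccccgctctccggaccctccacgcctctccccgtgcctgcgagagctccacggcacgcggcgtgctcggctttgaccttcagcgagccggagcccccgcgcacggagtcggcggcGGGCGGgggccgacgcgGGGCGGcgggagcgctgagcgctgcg

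The table held 8 of the 10 receptors, without Pdgfrb and Erbb3. In their windows of 250 bases, GGGCGG on either strand occurred in 7 of the 8, against 32.9% of all 27025 promoters. The window of Tyro3, with 3 of these motifs, lay wholly inside its annotated gene. So did 157 bases of the Met window and 71 of the Kit window. CACGTG, an E-box, and TGANTCA, the AP-1 motif, each occurred in Met only, 120 and 47 bases before its start inside the annotated gene and so not in the stretch shown above, against 6.05% and 6.87% of all promoters. CATGTG, another E-box of pigment cell genes, and AACAAT, a SOX motif, occurred in none of the 8, against 12.2% and 9.65% of all promoters. The motifs were searched on both strands. G and C made up 74.0% of the Met window, 70.8% of that of Kit, 60.0% of that of Axl and 77.6% of that of Igf1r.

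The receptors that were higher in the metastatic lines formed the second group. Pdgfrb, which binds PDGF-B and PDGF-D and is best known from pericytes and fibroblasts, had 0.183 and 0.133 FPKM in the parental line, 4.18 and 4.78 in the lymph node line, and 6.21 and 5.33 in the lung line. The parental values correspond to about 12 and 9 reads, and those of the metastatic lines to between 294 and 434. The log2 fold change was 4.15 in the lymph node line (standard error 0.16, adjusted p = 7.5e-06 from limma) and 4.51 in the lung line (adjusted p = 5.3e-06). With a pseudocount of 1 these became 2.24 and 2.55. The summed level of 10 fibroblast and mural cell markers, though not each of them, moved with Pdgfrb, at 2.45 to 2.51 FPKM in the parental line, 10.9 to 11.8 in the lymph node line and 12.6 to 12.9 in the lung line. In the metastatic lines most of that sum was Des, the muscle intermediate filament desmin, with 0.926 to 0.951 FPKM in the parental line and 9.38 to 10.3 in the other lines, whereas Dcn, Lum, Thy1 and Rgs5 were listed at 0 in all libraries and Col3a1 did not exceed 0.027 FPKM. Col1a2, a chain of type I collagen, was the other tested marker of this list and was also higher, with 0.635 and 0.742 FPKM in the parental line, 1.13 and 1.04 in the lymph node line (adjusted p = 0.031 from limma), and 1.77 and 2.17 in the lung line (adjusted p = 9.9e-04). Cspg4 (NG2), a marker of pericytes that was under the filter, had 0.842 FPKM in both parental libraries, 0.512 and 0.391 in the lymph node line (without the filter log2 fold change -0.78, adjusted p = 0.034 from limma), and 0.684 and 0.538 in the lung line (-0.41, adjusted p = 0.17). Acta2, the smooth muscle actin of mural cells, was also under the filter, was listed at 0 in the parental line and had 0.102 and 0.0980 FPKM in the lymph node line and 0.159 and 0.0729 in the lung line (adjusted p without the filter 0.021 and 0.016 from limma). Of 7 endothelial markers, whose sum was at most 0.277 FPKM in the parental line and at most 3.49 elsewhere, Cdh5, Tie1, Tek and Cldn5 were listed at 0 in all libraries. Des and Col1a2, like the 2 endothelial markers that were tested, passed the filter only through metastatic lines and are thus partly a selection for difference. Both endothelial markers were called higher in both metastatic lines, where 28.2% (lymph node line) and 29.5% (lung line) of all tested genes were higher. Pecam1 was listed at 0 in the parental line and had 0.751 to 1.26 FPKM in the other libraries, and Vwf had 0.0875 and 0.144 FPKM in the parental line and 1.11 to 2.15 in the others (adjusted p in the lymph node line 1.7e-04 and 2.3e-04 from limma). The part of these markers in the rise of Pdgfrb was not tested.

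Its paralog Pdgfra, which binds PDGF-A among others, did not follow. It had 0.101 and 0.139 FPKM in the parental line, 0.131 and 0.144 in the lymph node line, and 0.0784 and 0.139 in the lung line, values of about 7 to 13 reads that overlapped between all lines. It was not tested. Without the filter its log2 fold change was 0.12 in the lymph node line (adjusted p = 0.70 from limma) and -0.084 in the lung line (adjusted p = 0.79). In the parental line both PDGF receptors were thus at like levels, while in the metastatic lines Pdgfrb lay above Pdgfra in every library.

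Axl, Tyro3 and Mertk form the TAM family. Its ligands GAS6 and protein S bridge members of the family, not necessarily each of them, to phosphatidylserine on dying cells. Axl had 0.987 and 0.805 FPKM in the parental line, 5.20 and 5.07 in the lymph node line, and 3.45 and 2.87 in the lung line. The lines did not overlap, and the level was highest in the lymph node line. The log2 fold change of Axl was 2.40 in the lymph node line (standard error 0.15, adjusted p = 4.2e-05 from limma) and 1.71 in the lung line (adjusted p = 1.6e-04). With a pseudocount of 1 these were 1.70 and 1.13, and after quantile normalization 1.98 and 1.09.

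Tyro3, the most abundant TAM receptor in every library, had 8.72 and 8.12 FPKM in the parental line, 12.1 and 11.7 in the lymph node line, and 13.7 and 13.8 in the lung line. Its change was small but larger than the spread between libraries, with a log2 fold change of 0.49 in the lymph node line (standard error 0.063, adjusted p = 9.2e-04 from limma) and 0.70 in the lung line (adjusted p = 2.0e-04). Mertk had 0.662 and 0.922 FPKM in the parental line, 0.751 and 0.969 in the lymph node line, and 1.13 and 1.06 in the lung line. The parental line and the lymph node line overlapped, with a log2 fold change of 0.11 (95% confidence interval -0.44 to 0.66, adjusted p = 0.70 from limma), and for the lung line it was 0.44 (interval -0.11 to 0.99, adjusted p = 0.15). After quantile normalization Mertk was lower in the lymph node line instead (log2 fold change -0.95, adjusted p = 0.031 from limma), so no direction is given for it. Axl therefore made up 8.17% to 9.51% of the summed TAM level in the parental libraries, 28.6% to 28.8% in the lymph node line and 16.2% to 18.8% in the lung line. Macrophages also express Mertk and Axl, and of 9 leukocyte markers 5, among them Ptprc (CD45) and Itgam, were listed at 0 in all libraries, with a summed level of 2.60 to 2.76 FPKM in the parental line, 2.74 to 3.22 in the lymph node line and 3.63 to 4.62 in the lung line. Of the 2 that were tested, Lyz2, the lysozyme gene of macrophages and granulocytes, was higher in both metastatic lines, with 0.170 and 0.625 FPKM in the parental line, 0.916 and 1.18 in the lymph node line (log2 fold change 1.36, adjusted p = 0.044 from limma), and 2.05 and 1.5 in the lung line (2.07, adjusted p = 0.0092). Without the filter the call in the lymph node line was lost (adjusted p = 0.089 from limma). Lyz2 passed the filter only through the metastatic lines. The other tested one, Cd68, ranged from 0.983 to 2.67 FPKM with overlap between all lines (log2 fold change 0.022 in the lymph node line, adjusted p = 0.97 from limma), and Fcer1g, under the filter, had 1.41 and 0.367 FPKM in the parental line and 0.156 to 0.816 in the other libraries. The part of these markers in the levels of Axl and Mertk was not tested.

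Igf1r, the receptor of the insulin-like growth factors, had 1.19 and 1.11 FPKM in the parental line, 2.51 and 3.03 in the lymph node line, and 3.44 and 3.64 in the lung line. The lines did not overlap and the level was lowest in the parental line and highest in the lung line. For Igf1r the log2 fold change was 1.20 in the lymph node line (standard error 0.13, adjusted p = 5.3e-04 from limma) and 1.54 in the lung line (adjusted p = 1.8e-04). Egfr was listed at 0 in both parental libraries and in the first library of each metastatic line, and had 0.0103 and 0.00987 FPKM in the second ones, about 1 read each. No change of Egfr could be detected at this depth.

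**Figure D2:**
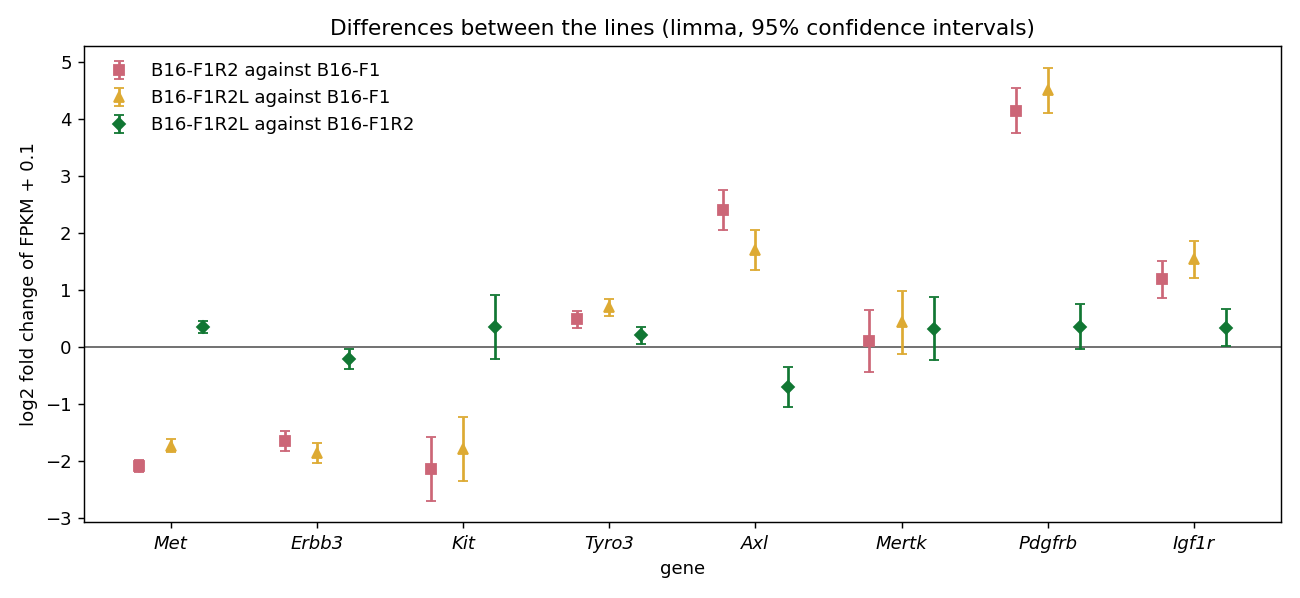
Log2 fold change of FPKM + 0.1 for the 8 tested receptors in the 3 comparisons between lines, with 95% confidence intervals from limma. Against B16-F1 the changes of both metastatic lines run from -2.13 for Kit to 4.51 for Pdgfrb, and between the metastatic lines from -0.69 for Axl to 0.36 for Met.

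Between the metastatic lines the receptors that were called against the parental line differed less. Mertk, which was not called in any comparison, had a log2 fold change of 0.325 between them and of 0.11 in the lymph node line against the parental line. In the lung line against the lymph node line Met was higher and Axl was lower, 2 of 8 tested receptors against 22.6% of all tested genes (12.1% higher and 10.5% lower, 1378 and 1190 genes, and 2079 and 489 after that scaling), although the libraries did not overlap for all 8 (65.2% of all tested genes). The log2 fold change of Met was 0.36 (standard error 0.046, adjusted p = 0.0070 from limma), and its adjusted p stayed between 0.0056 and 0.048 over the 16 alternatives that change the fit. That of Axl was -0.69 (standard error 0.15, adjusted p = 0.023 from limma). The call of Axl was lost without replicate 1 (adjusted p = 0.11) or 2 (adjusted p = 0.082) of the lymph node line, without replicate 2 of the lung line (adjusted p = 0.11) and without a filter on low values (adjusted p = 0.054), with log2 fold changes from -0.88 to -0.56 over all 16.

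The remaining receptors had log2 fold changes in the lung line against the lymph node line that did not pass the threshold, and their intervals leave room for moderate differences. The 95% confidence intervals were -0.038 to 0.75 for Pdgfrb, -0.21 to 0.91 for Kit, -0.23 to 0.88 for Mertk and 0.022 to 0.67 for Igf1r. For Tyro3 the log2 fold change was 0.21 (interval 0.058 to 0.36, adjusted p = 0.058 from limma) and for Erbb3 it was -0.20 (interval -0.38 to -0.030, adjusted p = 0.089). Scaling each library to a sum of 1000000 FPKM shifted the median of all tested genes in this comparison from 0.022 to 0.13, and Tyro3 then passed the threshold (log2 fold change 0.32, adjusted p = 0.029 from limma), as it did with a filter of 5 FPKM (adjusted p = 0.047). Erbb3 passed it after quantile normalization (log2 fold change -0.30, adjusted p = 0.039 from limma). In the ordering of the lines, the lymph node line and the lung line are neighbours that no alternative separated for Pdgfrb, Kit, Mertk and Igf1r and that only the settings just named separated for Tyro3 and Erbb3.

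The composition of the set changed together with its total. The FPKM of the 10 receptors summed to 182 and 185 in the parental line, 67.5 and 68.0 in the lymph node line, and 77.9 and 79.7 in the lung line. Met held 80.0% and 79.5% of this sum in the parental line, 51.1% and 51.0% in the lymph node line, and 55.1% and 57.5% in the lung line. The share of Pdgfrb was at most 0.1% in the parental line and 6.19% to 7.97% in the other lines. Tyro3 held 4.38% and 4.78% in the parental line and 17.2% to 17.9% elsewhere. Met was 797 and 1110 times as abundant as Pdgfrb in the parental libraries and 6.92 to 8.59 times in those of the metastatic lines. In the parental line the order from the top was Met, Erbb3, Tyro3, Kit and Igf1r. In both lymph node libraries it was Met, Tyro3, Erbb3, Axl and Pdgfrb, with Kit near the bottom.

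**Figure D3:**
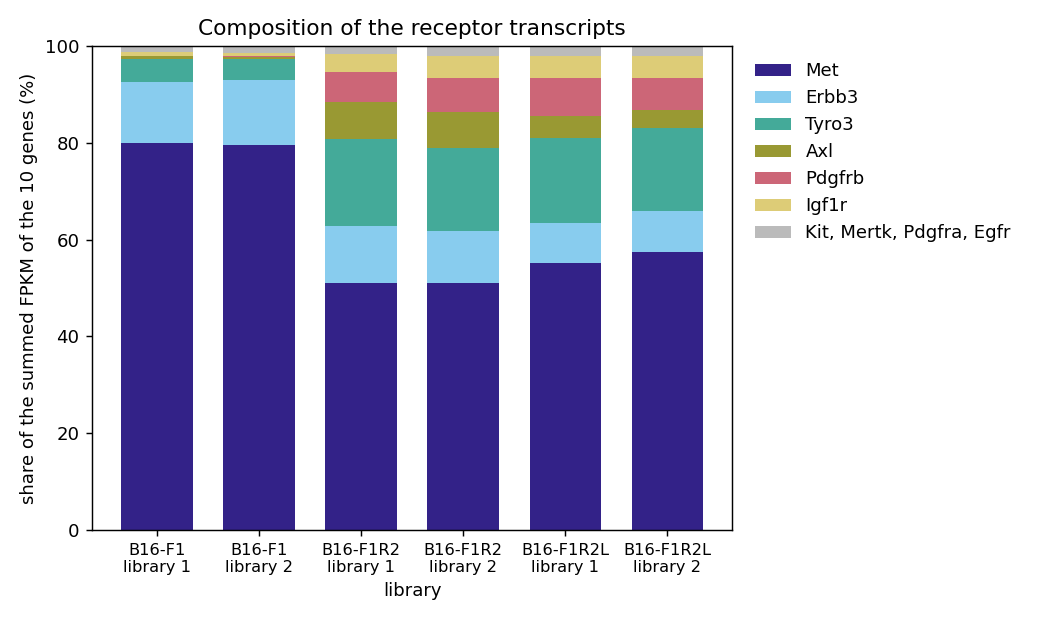
Share of each receptor in the summed FPKM of the 10 receptors, in percent, for each library. Met takes 79.5% to 80.0% in B16-F1 and 51.0% to 57.5% in the metastatic lines, where Tyro3, Axl, Pdgfrb and Igf1r take larger shares; Kit, Mertk, Pdgfra and Egfr are drawn together.

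The ligands of the receptors were mostly low in these cells. Of 21 ligand genes 4 passed the filter, Pdgfa, Pros1, Hbegf and Nrg4, and 16 stayed under 1 FPKM in all libraries. Among them Nrg4 is a ligand of ERBB4, and Erbb4 is not among the receptors described here. Pros1, which encodes the TAM ligand protein S, had 6.63 and 7.12 FPKM in the parental line, 10.5 and 10.9 in the lymph node line, and 12.6 and 12.7 in the lung line. It was higher in the lymph node line (log2 fold change 0.63, standard error 0.066, adjusted p = 3.8e-04 from limma) and in the lung line (0.87, adjusted p = 9.7e-05) than in the parental line. Gas6, the other TAM ligand, did not exceed 0.109 FPKM.

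Hbegf, a ligand of EGFR and ERBB4, had 1.55 and 0.957 FPKM in the parental line, 3.15 and 3.40 in the lymph node line, and 2.98 and 3.08 in the lung line. It was higher in the lymph node line (log2 fold change 1.36, adjusted p = 0.0021 from limma) and in the lung line (1.25, adjusted p = 0.0030), in cells in which Egfr was at or next to 0. Tgfa, another EGFR ligand, was under the filter and had 0.570 and 0.488 FPKM in the parental line and 0.0638 to 0.153 in the other libraries. Without the filter its log2 fold change was -1.79 in the lymph node line (adjusted p = 0.0035 from limma) and -1.54 in the lung line (adjusted p = 0.0056), opposite to Hbegf. Pdgfa ranged from 5.38 to 6.97 FPKM over the parental and lymph node libraries (log2 fold change 0.12, 95% confidence interval -0.25 to 0.48, adjusted p = 0.54 from limma) and was lower in the lung line, where no library exceeded 3.70 FPKM (log2 fold change against the parental line -0.86, adjusted p = 0.0036 from limma). Pdgfb and Pdgfd, the ligands of Pdgfrb, were under the filter. Pdgfb was listed at 0 in a parental library and had 0.0341 FPKM in the other and 0.192 to 0.308 in the metastatic libraries (adjusted p without the filter 0.0048 and 0.0020 from limma). Pdgfd had 0.127 and 0.175 FPKM in the parental line and was listed at 0 in all other libraries (adjusted p without the filter 0.0023 in each metastatic line). Nrg4, a ligand of ERBB4, ranged from 1.75 to 2.84 FPKM over the 6 libraries, with log2 fold changes of 0.039 in the lymph node line (95% confidence interval -0.49 to 0.57, adjusted p = 0.89 from limma) and 0.25 in the lung line (interval -0.27 to 0.78, adjusted p = 0.35).

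Ligands of Met, Igf1r, Erbb3 and Kit were under the filter. Hgf, the only known ligand of MET, had 0.027 FPKM in 1 library and was listed at 0 in the others, and Igf1 and Igf2 did not exceed 0.016 FPKM. Nrg1, a main ligand of ERBB3, was listed at 0 throughout. Nrg2, another ERBB3 ligand, had 1.09 and 0.747 FPKM in the parental line and 0.364 to 0.506 in the other libraries, without overlap. Without the filter its log2 fold change was -0.92 in the lymph node line (adjusted p = 0.039 from limma) and -1.01 in the lung line (adjusted p = 0.028). Kitl, which encodes stem cell factor, had 0.179 and 0.221 FPKM in the parental line and 0.680 to 0.962 in the other libraries, without overlap, and was under the filter (adjusted p without it 0.0036 and 0.0050 from limma). Serum in the medium can also supply growth factors, and ligand protein was not measured here.

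**Figure D4:**
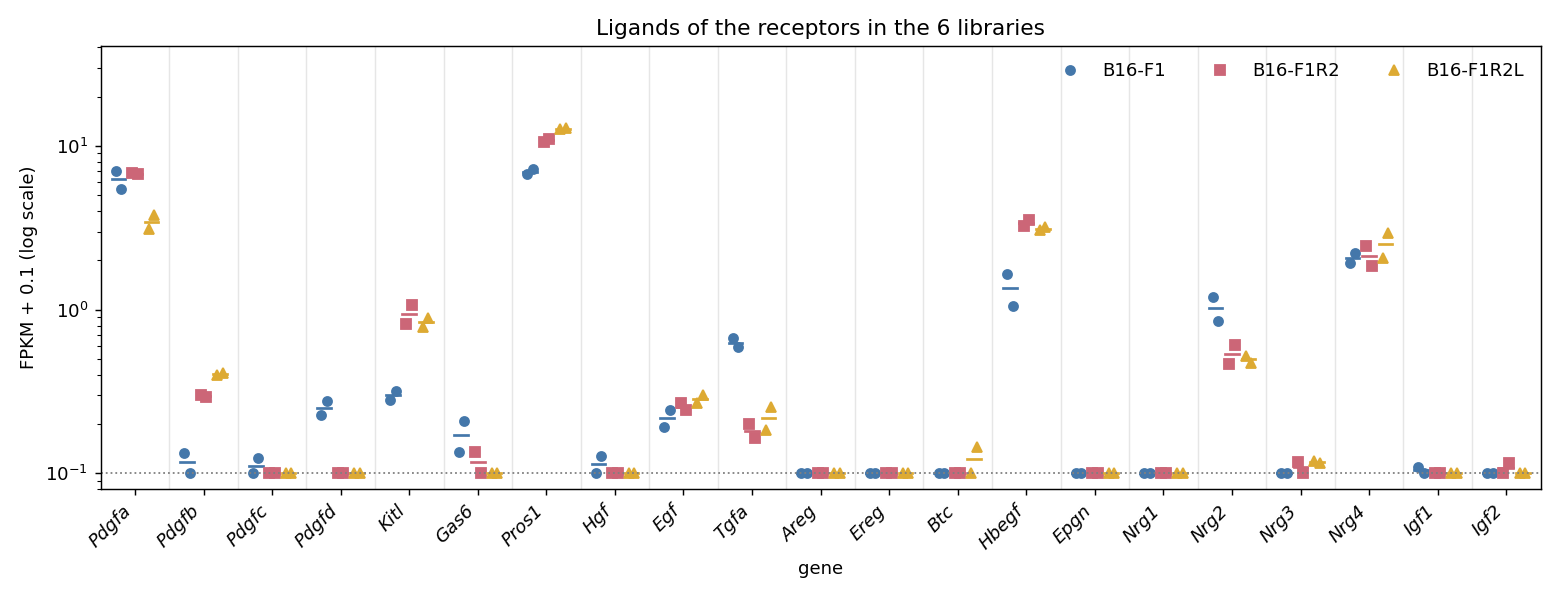
FPKM of 21 ligand genes in each library on a log axis, with 0.1 added and the dotted line marking a listed value of 0. Points are libraries and bars are means. Pros1 and Pdgfa are the highest, at up to 12.7 and 6.97 FPKM, and Hgf, Igf1, Igf2 and Nrg1 lie on or beside the dotted line.

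Of 34 other receptor tyrosine kinases without the Eph receptors, 11 were tested. In the lymph node line against the parental line, 4 of them were higher and 3 lower, in the lung line against the parental line 6 and 3, and in the lung line against the lymph node line 4 and 0. Of all tested genes 55.4%, 56.7% and 22.6% were called in these comparisons. Mst1r and Ntrk3 passed the filter only through metastatic lines, so these counts are descriptions only. The largest rise was that of Mst1r, the receptor of macrophage stimulating protein and closest relative of Met, which was listed at 0 in both parental libraries and had 3.27 and 3.80 FPKM in the lymph node line and 5.48 and 6.97 in the lung line (adjusted p = 5.2e-06 and 2.8e-06 from limma). Met and Mst1r thus changed in opposite directions. Fgfr1 had 0.904 and 1.06 FPKM in the parental line and 2.36 to 2.77 in the other libraries (log2 fold change 1.34 in the lymph node line, adjusted p = 3.8e-04 from limma). Ntrk3, a neurotrophin receptor, had 0.302 and 0.182 FPKM in the parental line, 0.606 and 0.463 in the lymph node line, and 1.39 and 1.81 in the lung line (adjusted p = 0.035 for the lymph node line from limma). The falls were small, with log2 fold changes of -0.50 for Lmtk2, -0.45 for the collagen receptor Ddr1 and -0.19 for Ryk. Erbb2, the usual partner of ERBB3, ranged from 4.34 to 5.83 FPKM over the 6 libraries (log2 fold change -0.28 in the lymph node line, adjusted p = 0.052 from limma).

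Among 37 adaptors and proximal effectors, 32 were tested, of which 3 were higher and 12 lower in the lymph node line than in the parental line, with a median log2 fold change of -0.11, against 28.2% of all tested genes higher and 27.2% lower. In the lung line 4 were higher and 9 lower than in the parental line (29.5% and 27.1% of all tested genes), and 7 higher and 0 lower than in the lymph node line, where 12.1% of all tested genes were higher and 10.5% lower. The largest falls were those of the kinase Src, from 31.4 and 32.6 FPKM to 17.1 and 17.3, of Shc4, an adaptor of the Shc family, from 23.6 and 22.0 to 13.1 and 12.9, and of Pik3r3, a regulatory subunit of PI3K, from 52.5 and 51.7 to 29.7 and 31.5. Their adjusted p were 7.7e-05, 1.2e-04 and 7.9e-05 from limma. In the lung line Shc4 had 20.2 and 21.8 FPKM. The rises were those of Grb7, which was listed at 0 in the parental line and had 0.692 and 0.961 FPKM in the lymph node line, of the exchange factor Vav2, from 3.26 and 2.91 to 7.00 and 6.32, and of Irs1, the substrate of the insulin and IGF1 receptors, from 1.09 and 1.17 to 1.74 and 2.08.

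Of 30 negative regulators 25 were tested, and 7 were higher and 5 lower in the lymph node line than in the parental line, with a median log2 fold change of -0.053, against 28.2% and 27.2% of all tested genes. In the lung line 6 were higher and 4 lower than in the parental line, and 3 higher and 1 lower than in the lymph node line (56.7% and 22.6% of all tested genes called). The inositol phosphatase Inpp5d (SHIP1), known from blood cells, went from 0 and 0.017 FPKM in the parental line to 4.97 and 5.40 in the lymph node line, and the receptor phosphatase Ptprf from 0.0118 and 0.0247 to 2.26 and 2.65 (adjusted p = 2.7e-06 and 1.0e-05 from limma). Ptpn6 (SHP-1) was also higher, with 5.05 and 5.52 FPKM in the parental line and 10.3 and 9.47 in the lymph node line. The largest falls were those of Socs3, with a log2 fold change of -0.73, Socs5 with -0.41 and Ptprj with -0.40.

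Of 14 sheddases and genes of IGF binding 10 were tested, with 4 higher and 4 lower in the lymph node line than in the parental line and 4 higher and 3 lower in the lung line, against 55.4% and 56.7% of all tested genes called. Igfbp4, a secreted IGF inhibitor, had 132 and 135 FPKM in the parental line and 67.5 and 62.9 in the lymph node line (log2 fold change -1.03, adjusted p = 3.3e-05 from limma). Bace2, a membrane protease of pigment cells, went from 104 and 106 FPKM to 47.4 and 46.6, and Igf2r, which clears IGF2, from 32.2 and 31.6 to 23.6 and 26.1. Igfals, Igfbp7 and Igfbp6 were higher but stayed under 2.5 FPKM in all libraries.

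In NCBIM37 the 10 receptors lie on 7 chromosomes, as annotated in GENCODE. Met lies on chromosome 6 from 17413800 to 17523980, Erbb3 on chromosome 10 from 128004579 to 128026708, Kit on chromosome 5 from 75970941 to 76052747, and Pdgfra, on the same strand 377 kb before it, from 75548316 to 75594229. Pdgfrb lies on chromosome 18 from 61204804 to 61244715, Igf1r on chromosome 7 from 75097713 to 75371484, and Axl on the same chromosome from 26542292 to 26573724. Tyro3 (119623469 to 119643840) and Mertk (128524692 to 128628630) are on chromosome 2, and Egfr is on chromosome 11 from 16652206 to 16818161. None of the stretches of 50 bases in the protein-coding transcripts of these genes occurred in another protein-coding gene, except for 16 of 11002 (0.145%) in Egfr.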

How the data were processed

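RNA of 6 libraries, 2 for each melanoma line, was grouped by the cell line named in the labels. The authors sequenced polyadenylated RNA with a stranded kit in single-end reads and aligned them to NCBI37/mm9 with TopHat 2.0.10. The submitters' processing notes also name Cuffnorm, and the gene annotation is not given in the sources used here. The deposited table holds FPKM values that the authors computed, 1 column per library; FPKM are not counts, so DESeq2, which the authors used, was not applied. An exact 0 can be a failed estimate and is described as listed at 0.

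Of 23951 genes, the 11379 that reached 1 FPKM in 2 or more libraries were analysed as log2(FPKM + 0.1). R 4.3.3 with limma 3.58.1 fitted a linear model to all 6 libraries (eBayes with its trend option), with Benjamini-Hochberg adjustment over all tested genes, and was tested on simulated data. Other steps used Python 3.11.15 with pandas 2.3.3 and numpy 2.4.6. Alternatives were pseudocounts of 1 and 0.01, no filter or a filter of 5 FPKM, scaling to 1000000, by median ratios or by quantiles, eBayes without a trend, a fit to the 4 libraries compared alone, the replicate number as a block, a log2 fold change of at least 1, and each library left out. The receptors and gene lists were chosen with earlier results of these data known. All receptors were named, every ligand that passed the filter, and of the other lists at most 3 genes in each direction with the largest change in B16-F1R2 against B16-F1 among those called without overlap; Erbb2, Gas6, Hgf, Igf1, Igf2, Nrg1, Nrg2, Kitl, Tgfa, Pdgfb, Pdgfd and single marker genes were added after their values were seen. Reads behind a value were estimated from the value of 1 read and the longest transcript in GENCODE, which need not be the one the authors used. The value of 1 read was the median of low values within a preset window, so these read numbers are rough.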

Additional observations from a re-analysis of the deposited data

Results flagged for a closer look

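The change against the parental line differed between the metastatic lines for Axl, where the difference of B16-F1R2L from B16-F1R2 was -0.69 on the log2 scale (adjusted p = 0.023 from limma, and 0.013 to 0.11 over 16 alternatives), with both B16-F1R2L libraries below both B16-F1R2 libraries. For Met the difference of B16-F1R2L from B16-F1R2 was 0.36 (adjusted p = 0.0070 from limma, and 0.0056 to 0.048 over 16 alternatives), with both B16-F1R2L libraries above both B16-F1R2 libraries. Groups of 2 libraries are too small for a check of outlying libraries.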

How the results depend on the processing

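Against B16-F1 the 4 receptors that were higher and the 3 that were lower kept their direction and their adjusted p under 0.05 in both metastatic lines under every alternative in which they were tested; Tyro3 missed only a required log2 fold change of at least 1. For Mertk the direction reversed: after quantile normalization its log2 fold change was -0.95 in the lymph node line B16-F1R2 and -0.81 in the lung line B16-F1R2L, and with each library left out it ran from -0.099 to 0.32 in B16-F1R2, turning negative without B16-F1 replicate 1 and, at -0.051, without B16-F1R2 replicate 2. In B16-F1R2L against B16-F1R2, where 1 receptor was higher and 1 lower, 2 were higher, with Tyro3 added, with a filter of 5 FPKM or after scaling to 1000000, 2 were lower, with Erbb3 added, after quantile normalization, 0 were lower without a filter, and 0 were higher and 0 lower with a required log2 fold change of at least 1; with each library left out, 0 to 1 were lower and 1 was higher. Beyond the smaller gene set of the filters and the added requirement, the cause was not tested.

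With the block for the replicate number the counts were 4 higher and 3 lower against B16-F1 in each metastatic line and 1 and 1 between these lines. Deviations of same-numbered libraries correlated by 0.052, -0.10 and 0.079 across genes, so no pairing by number was seen over all tested genes. Pairing in a part of the genes was not tested. With crossed numbers, added after the negative correlation was seen, B16-F1R2L against B16-F1 still gave 4 and 3.

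Over all tested genes a required log2 fold change of at least 1 left 819 higher and 328 lower of 3207 and 3098 in B16-F1R2 against B16-F1, 957 and 259 of 3361 and 3086 in B16-F1R2L against B16-F1, and 116 and 24 of 1378 and 1190 between the metastatic lines. Scaling to 1000000 gave 2079 higher and 489 lower between the metastatic lines and 2043 lower in B16-F1R2L against B16-F1. Between the metastatic lines 743 were lower without a filter and 650 without a trend, 874 were higher and 644 lower in a fit to their 4 libraries alone, and with each library left out 297 to 904 were higher, with the fewest, 297 higher and 140 lower, without B16-F1R2 replicate 1. Values of Pdgfra, Egfr and Kit, and those of Pdgfrb in the parental line, rest on few reads, which limits their precision.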

Other observations

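The tested genes whose levels over the 6 libraries were most like those of each receptor were found by the root mean square difference of log2(FPKM + 0.1), each gene centred on its own mean. Closest to Pdgfrb was Mmp2, a matrix metalloproteinase, with 1.22 and 1.06 FPKM in the parental line, 22.9 and 22.8 in the lymph node line, and 30.7 and 29.6 in the lung line (difference 0.088), followed by Wfdc12 (0.13). Axl was closest to Pcdh1, a protocadherin, and to Col5a1, a collagen chain with 3.01 and 3.20 FPKM in the parental line, 19.3 and 21.7 in the lymph node line, and 12.8 and 11.7 in the lung line (differences 0.14 and 0.17). Kit was closest to the transcription factor Elf4 and to Met (0.088 and 0.13), and Met to Prkg1 and St6gal1 (0.074 and 0.077). Tyro3 was closest to Hk2, which encodes a hexokinase, and Tstd2 (0.020 and 0.024), Erbb3 to Tagln2 and Eogt (0.082 and 0.097), Igf1r to Cubn and Hapln4 (0.035 and 0.056), and Mertk to Bbc3 and Zfp39 (0.047 and 0.067).

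The nearest tested genes on the chromosome are given by their log2 fold change in the lymph node line against the parental line. Around Pdgfrb, Tcof1, 196 kb away, had 0.32 and Hmgxb3, 46.2 kb away, had -0.020. Around Axl, Hnrnpul1, 2.54 kb away, had -0.11 and Egln2, 1370 kb away, had -0.44. Beside Erbb3, Pa2g4 and Rps26 were higher, at 0.57 and 0.40 (adjusted p = 7.7e-05 and 0.0027 from limma), opposite to the receptor. Cav1, the gene of caveolin-1 that lies 122 kb before Met, was lower as well (log2 fold change -1.27, adjusted p = 6.4e-04 from limma), and so was Capza2 on the other side (-0.25, adjusted p = 0.0029). Pgpep1l, 10.0 kb after Igf1r, was higher (adjusted p = 4.4e-05 from limma), with a highest value of 2.52 FPKM over all libraries, while Ttc23 before Igf1r had 0.10. Around Kit, Chic2, 530 kb away, had -0.13 and Srd5a3, 517 kb away, had -0.87. Beside Tyro3, Rpap1 had -0.21 and Mga -0.016. Beside Mertk, Anapc1 had -0.11 and Tmem87b -0.63.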
